A study of Mus musculus with 8 samples.

Results

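The transcripts described here encode the kinases that carry inflammatory signals to NF-κB, the interferon regulatory factors and the MAP kinases, together with their scaffold proteins. They are *Chuk*, *Ikbkb* and *Ikbkg* of the IKK complex, *Ikbke* and *Tbk1* of the IKK-related kinases, and *Map3k7*, *Map3k8* and *Map3k14* of the upstream MAP3 kinases. *Tab2* and *Tab3*, adaptors of the kinase encoded by *Map3k7*, complete the set. The 10 genes were taken by name from a table of 23356 genes, and all 10 were found. All 10 were also among the 11397 genes that reached at least 1 FPKM in at least 1 group.

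RNA was sequenced from BMDCs, dendritic cells grown for 6 days from mouse bone marrow with GM-CSF and IL-4 (10 ng/ml each), in 8 libraries that formed 4 groups of 2. The groups were control WT DCs, WT DCs exposed to the microtubule-destabilizing maytansine derivative ansamitocin-P3 (100 nM, 5 h), control DCs from mice lacking *Arhgef2* (Arhgef2-/-, here GEF-H1-/-), and GEF-H1-/- DCs given the same drug. All mice had a C57BL/6N background (C57BL/6 in the labels) and were sex-matched young adults, and *Arhgef2* encodes GEF-H1, a RhoA exchange factor held on microtubules. The labels do not say whether the 2 libraries of a group came from separate mice or cultures. GEF-H1-/- DCs are called knockout DCs below.

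The deposited values are FPKM (fragment counts scaled by transcript length and library size), and Cuffdiff had combined both libraries of a group into 1 value per gene. Cuffdiff gave each value a 95% confidence interval, which stands here as its error, and there is no SD and no test between groups. Overlap of 2 such intervals does not show that a gene was unchanged. The interval of the 40 values described here had a median width of 41.7% of the FPKM (36.3% to 90.4%), and each value lay inside its own interval. Fragment counts are not kept in FPKM, so the depth behind a value was not determined. Changes between 2 groups are log2 ratios, taken after adding 1 to each FPKM. The added 1 makes this smaller than the plain ratio where FPKM is low. A gene was counted as past the limit when this log2 value was over 1 or under -1.

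*Arhgef2* was at 42.3 and 45.9 FPKM in control and treated WT DCs and at 4.59 and 4.16 FPKM in control and treated knockout DCs. The columns of WT cells name no genotype and were assigned by elimination. The 5 dendritic cell markers examined (*Itgax*, *Cd74*, *H2-Ab1*, *Flt3* and *Zbtb46*) were above 0 in each group and summed to between 3720 and 5714 FPKM. Most of each sum was *Cd74*, at 3073 to 4935 FPKM. *Flt3* was at only 1.07 to 2.63 FPKM. With the drug in WT DCs it was lower, at 2.10 against 1.07 FPKM with intervals apart, while those of the other dendritic cell markers overlapped. Macrophage markers (*Csf1r*, *Emr1*, *Mertk*) summed to 126 FPKM in control WT and 79.9 in treated WT DCs, and to 133 and 110 FPKM in control and treated knockout DCs. Granulocyte markers, of which 2 of 3 were found and *S100a8* made up nearly the whole sum, came to 19422, 23131, 10902 and 11238 FPKM in the same order, with the FPKM of *S100a8* above its own interval in each group. *Elane*, the other granulocyte marker found, ran the other way, at 20.7 and 20.2 FPKM in control and treated WT against 45.9 and 39.2 in control and treated knockout DCs. Between the control groups *Elane* was past the limit (log2 1.11), but its intervals had a lower bound of 0 and overlapped. *S100a8* was lower in knockout DCs with intervals apart, past the limit in treated cells (log2 -1.05) and inside it in control cells (-0.84). *Mertk* was past the limit with the drug in WT DCs, at 5.46 against 0.778 FPKM (log2 -1.86). In knockout DCs its change was -0.65, and its intervals were apart in both genotypes. None of these markers that were found was at 0 in any group. The share of these cell types in the values below was not tested, and in such bulk samples fewer cells of a type and less RNA per cell cannot be told apart.

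The IKK complex joins the kinases IKKα (*Chuk*) and IKKβ (*Ikbkb*) to the regulatory subunit NEMO (*Ikbkg*), which binds ubiquitin chains. It phosphorylates the IκB proteins, which are then degraded and free NF-κB to enter the nucleus. IKKε (*Ikbke*) and TBK1 (*Tbk1*) are related kinases that phosphorylate interferon regulatory factors. TAK1 (*Map3k7*) is brought to ubiquitin chains by TAB2 or TAB3 and activates IKKβ and MAP2 kinases, TPL2 (*Map3k8*) activates the MEK kinases, and NIK (*Map3k14*) activates IKKα in the non-canonical branch. In macrophages and dendritic cells these kinases are switched on by phosphorylation, ubiquitin and protein turnover, and a transcript level does not measure any of these.

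Promoter sequences were looked up in RefSeq (GRCm38.p6) to look for motifs of factors that act downstream of these kinases. Of the 10 genes, 8 had a window of 250 bases before to 50 bases after the start that coincided with the start of the gene in the deposited table, the others being *Ikbkb* and *Map3k8*. Printed here are the windows up to the start base for the members at either end of the genotype difference described below, *Map3k14* on chr11:103267401-103267651 and *Ikbke* on chr1:131279563-131279813, both on the minus strand. Capitals mark a match to TGANTCA, where N is any base, a pattern looser than the AP-1 motif TGA(C/G)TCA.
Map3k14: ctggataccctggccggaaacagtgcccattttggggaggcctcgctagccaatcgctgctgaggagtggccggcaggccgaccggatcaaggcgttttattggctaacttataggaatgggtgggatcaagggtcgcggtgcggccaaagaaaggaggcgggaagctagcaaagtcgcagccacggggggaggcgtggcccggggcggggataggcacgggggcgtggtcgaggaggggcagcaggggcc
Ikbke: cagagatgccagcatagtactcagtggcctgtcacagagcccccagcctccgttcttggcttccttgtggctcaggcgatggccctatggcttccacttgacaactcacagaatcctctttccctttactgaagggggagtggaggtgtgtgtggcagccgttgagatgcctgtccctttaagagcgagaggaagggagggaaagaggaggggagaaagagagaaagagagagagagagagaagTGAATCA

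The match in *Ikbke*, TGAATCA, ended on the annotated start base and has A at the free base, so it is not TGA(C/G)TCA. *Ikbkg* held the other match to TGANTCA among the 8 windows. That looser pattern, searched on both strands, was found in 7.81% of all 32851 windows in the reference table. A match to the NF-κB consensus was present in the window of *Map3k7* alone, against 8.46% of all windows. None of the 8 windows held a motif of interferon regulatory factors (a pair of GAAA cores spaced by NN), found in 3.44% of all windows, or TGACGTCA, the cAMP response element found in 1.79%. GC content of the 8 windows ran from 51.7% in *Chuk* to 78.0% in *Tab2*, with a median of 52.7% over all windows. These are matches of letters only, and a missing match says nothing of a factor outside the window.

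In control WT DCs the adaptor gene *Tab2* was the most abundant of the set, at 38.2 FPKM, followed by *Map3k14* at 35.7 FPKM. *Chuk*, *Tbk1*, *Ikbkb* and *Ikbke* lay between 26.5 and 19.7 FPKM, and *Map3k7* and *Ikbkg* at 13.5 and 11.2 FPKM. *Map3k8* with 6.21 FPKM and *Tab3* with 3.35 FPKM closed the order. Of the 9 neighbouring pairs in this order, the intervals were apart only between *Map3k8* and *Tab3*. The set therefore ran from a level exceeded by 19.9% of the genes that passed the filter to one exceeded by 81.3%. In both knockout groups *Tab2* and *Map3k14* again came first and *Map3k8* and *Tab3* last, and in treated WT DCs *Map3k14* stood above *Tab2* with overlapping intervals.

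**Figure D1:**
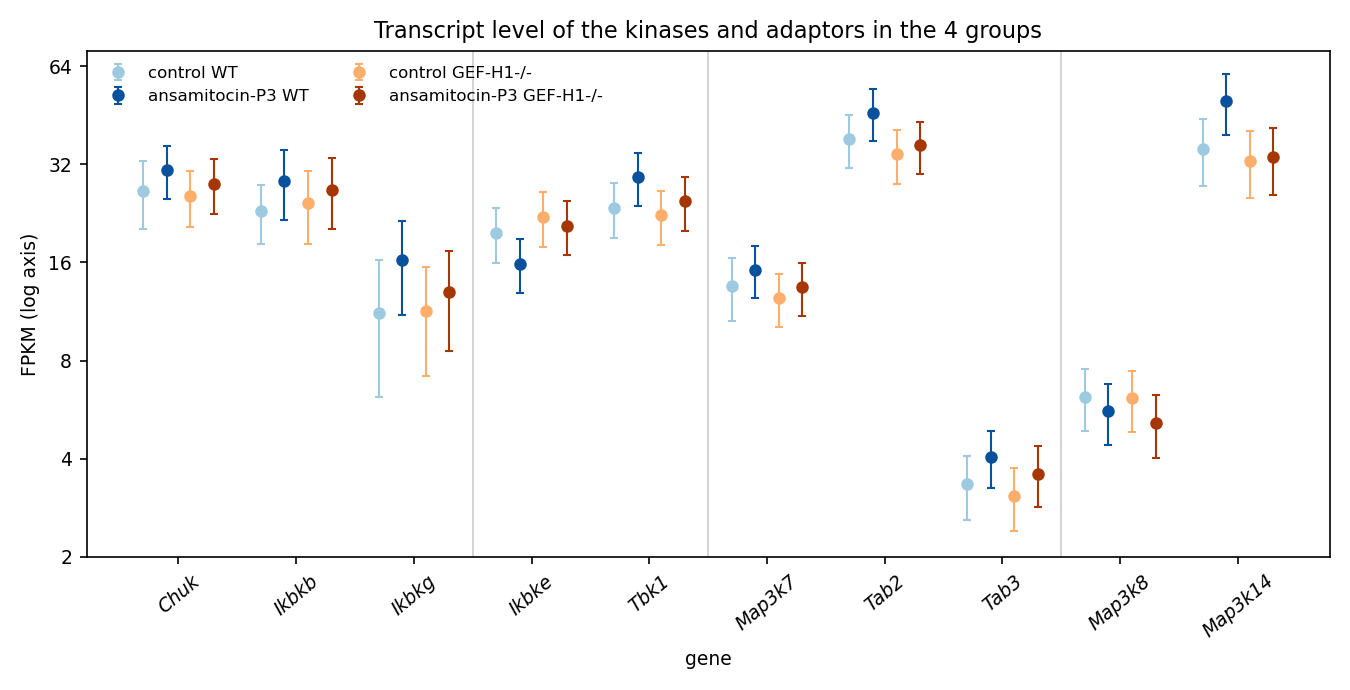
FPKM (log axis) of each gene in control WT, ansamitocin-P3 WT, control GEF-H1-/- and ansamitocin-P3 GEF-H1-/- DCs, as 1 point per group with the 95% interval of Cuffdiff, and grey lines between the IKK complex, the IKK-related kinases, TAK1 with its adaptors, and the other MAP3 kinases. For each of the 10 genes the 4 intervals overlap, and *Map3k14* has the widest range as deposited, from 32.8 to 50.0 FPKM.

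None of the 10 genes passed the limit with ansamitocin-P3 in WT DCs, where 4.94% of all genes did, or in knockout DCs, where 1.08% did. The intervals of control and treated cells overlapped for each of the 10 genes in both genotypes, while they were apart for 16.8% of all genes in WT and 3.7% in knockout DCs. In the table as deposited, 8 of the 10 were higher and 2 (*Ikbke* and *Map3k8*) lower after the drug, in each genotype. Of all genes, 50.1% were higher after the drug in WT and 47.6% in knockout DCs. With FPKM rescaled to a common sum over genes, which moves the median change of all genes in WT DCs from 0.00 to -0.24, only 4 of the 10 were higher after the drug in WT DCs (*Ikbkb*, *Ikbkg*, *Tbk1* and *Map3k14*). Relative to the median of all genes, the same number of members, 8 of 10, lay above it in WT and in knockout DCs under either scaling. Rescaling shifts the changes of all genes and their median by nearly the same amount. The agreement between the scalings was therefore fixed in advance and shows nothing about the members. The median change of the 10 genes was 0.24 in WT and 0.11 in knockout DCs, beside 0.00 and -0.01 over all genes.

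Of the IKK complex, *Chuk* (chr19:44073334-44107477, GRCm38 as for all positions below) had 26.5 FPKM (95% interval 20.2 to 32.8) in control WT, 30.7 (25.1 to 36.3) in treated WT, 25.5 (20.6 to 30.5) in control knockout and 27.9 (22.6 to 33.1) in treated knockout DCs. *Ikbkb* (chr8:22659205-22706583) had 22.998 FPKM (18.3 to 27.7), 28.4 (21.5 to 35.5), 24.3 (18.2 to 30.6) and 26.6 (20.3 to 33.5) in the same order. The genes of both catalytic subunits were thus highest in treated WT DCs, with the 4 intervals of each overlapping. Their log2 changes with the drug were 0.20 and 0.29 in WT and 0.12 and 0.13 in knockout DCs, and under the common sum that of *Chuk* in WT DCs turned to a value below 0. The ratio of *Ikbkb* to *Chuk* FPKM stayed between 0.868 and 0.956 in the 4 groups.

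*Ikbkg* (chrX:74393291-74453778), the gene of the subunit NEMO, had 11.2 FPKM (6.21 to 16.3) in control WT, 16.3 (11.1 to 21.5) in treated WT, 11.3 (7.17 to 15.5) in control knockout and 13.0 (8.56 to 17.4) in treated knockout DCs. Its log2 change of 0.50 in WT DCs was the highest of the 10 genes with the drug and was exceeded by 12.3% of all genes, and it was 0.18 in knockout DCs. Relative to its FPKM, these intervals were the widest of the set, and they overlapped between the groups. The table lists *Ikbkg* with 4 transcription start groups and at the same locus as *G6pdx*, a gene on the opposite strand that was at 85.3 to 95.7 FPKM. The libraries were stranded, but whether Cuffdiff used the strand is not given in the sources used here, so the share of fragments that these overlapping genes exchange was not determined. NEMO transcripts were below those of both kinases in each group, with the intervals apart, at 0.423 to 0.531 of the *Chuk* FPKM.

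*Ikbke* (chr1:131254602-131279563) was lower after the drug in both genotypes, with 19.7 FPKM (16.0 to 23.5) in control WT, 15.9 (12.9 to 18.9) in treated WT, 22.1 (17.9 to 26.3) in control knockout and 20.7 (16.8 to 24.7) in treated knockout DCs. Treated WT DCs had the lowest of the 4 values, and the intervals overlapped. On the log2 scale it differed by -0.30 in WT and by -0.09 in knockout DCs. Under the common sum, the value of treated WT DCs became 13.1 (10.6 to 15.5), apart from 19.7 in control WT and from 20.5 (16.6 to 24.3) in treated knockout DCs, so the call for *Ikbke* rests on the scaling. The annotation places antisense transcripts across *Ikbke* (*Gm28914* and *Gm28913*) and *Ikbkb* (*Gm15346*).

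*Tbk1* (chr10:121546456-121586794) had 23.5 FPKM (19.0 to 28.0) in control WT, 29.3 (23.8 to 34.7) in treated WT, 22.3 (18.1 to 26.6) in control knockout and 24.6 (20.0 to 29.3) in treated knockout DCs. The highest value was in treated WT DCs, with overlapping intervals, and the log2 changes were 0.31 in WT and 0.14 in knockout DCs. The common sum brought the WT change of *Tbk1* to 0.04, and its highest value was no longer in treated WT DCs. The ratio of *Ikbke* to *Tbk1* FPKM was 0.840 in control WT and 0.542 in treated WT DCs, and 0.991 and 0.842 in control and treated knockout DCs. Only in treated WT DCs were the intervals of the 2 genes apart. The range of the ratio that the bounds allow there, 0.372 to 0.791, still overlapped that of control WT DCs, 0.570 to 1.24. The ratio within a group does not depend on the scaling of that group.

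**Figure D2:**
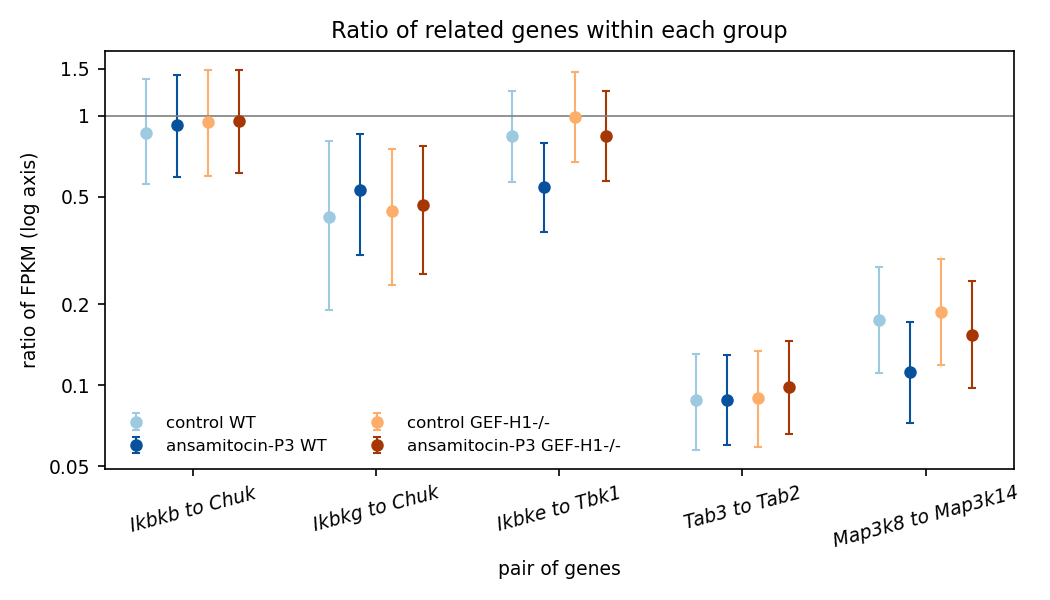
Ratio of FPKM (log axis) between related genes in the 4 groups, with bars from the lowest to the highest ratio that the bounds of the Cuffdiff intervals allow and a line at 1. The ratio of *Ikbke* to *Tbk1* is 0.542 in treated WT DCs and 0.840 to 0.991 in the other groups, and *Tab3* stays at 0.088 to 0.098 of *Tab2*.

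For TAK1, *Map3k7* (chr4:31964107-32023466) had 13.5 FPKM (10.5 to 16.5) in control WT, 15.2 (12.4 to 18.0) in treated WT, 12.5 (10.1 to 14.8) in control knockout and 13.5 (11.0 to 16.0) in treated knockout DCs. Treated WT DCs again had the highest value, with overlapping intervals and changes (log2) of 0.16 in WT and 0.10 in knockout DCs. Under the common sum its change in WT DCs was below 0.

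*Tab2* (chr10:7905648-7956123) had 38.2 FPKM (31.1 to 45.4), 46.0 (37.6 to 54.3), 34.3 (27.9 to 40.7) and 36.6 (29.9 to 43.3) in control WT, treated WT, control knockout and treated knockout DCs. *Tab3* (chrX:85574022-85634469), which encodes the related adaptor, had 3.35 FPKM (2.60 to 4.07), 4.05 (3.26 to 4.86), 3.07 (2.39 to 3.75) and 3.60 (2.84 to 4.36) in the same order. Both were highest in treated WT and lowest in control knockout DCs, with overlapping intervals. The log2 changes with the drug were 0.26 and 0.22 in WT and 0.09 and 0.18 in knockout DCs, and both WT values were below 0 under the common sum. The difference between the adaptors was far outside their intervals, since *Tab3* was at 0.088 to 0.098 of the *Tab2* FPKM in the 4 groups. *Tab2* in turn was at 2.72 to 3.02 times the FPKM of *Map3k7*.

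*Map3k8* (chr18:4331327-4352953), the gene of TPL2, had 6.21 FPKM (4.88 to 7.53) in control WT, 5.59 (4.40 to 6.77) in treated WT, 6.14 (4.82 to 7.44) in control knockout and 5.16 (4.03 to 6.29) in treated knockout DCs. Treated cells had the lower value in both genotypes, the log2 difference being -0.13 in WT and -0.21 in knockout DCs, and the intervals overlapped. It was the only member with a smaller value in treated knockout than in the other 3 groups.

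*Map3k14* (chr11:103219764-103267401), the gene of NIK, had 35.7 FPKM (27.4 to 44.0) in control WT, 50.0 (39.4 to 60.7) in treated WT, 32.8 (25.3 to 40.6) in control knockout and 33.6 (25.8 to 41.5) in treated knockout DCs. Treated WT DCs stood above the other 3 groups, which lay within 3 FPKM of each other, but its interval still overlapped theirs. The log2 change was 0.47 in WT and 0.03 in knockout DCs. The genotype difference in the drug's effect, 0.44, was the largest of the 10 genes as deposited and was exceeded by 8.47% of all genes. Under the common sum the WT change of *Map3k14* was 0.20, that in knockout DCs -0.01 and the genotype difference 0.21, smaller in size than the -0.43 of *Ikbke*. *Map3k14* and *Ikbkg* were the only members that kept the highest FPKM in treated WT DCs under the common sum.

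**Figure D3:**
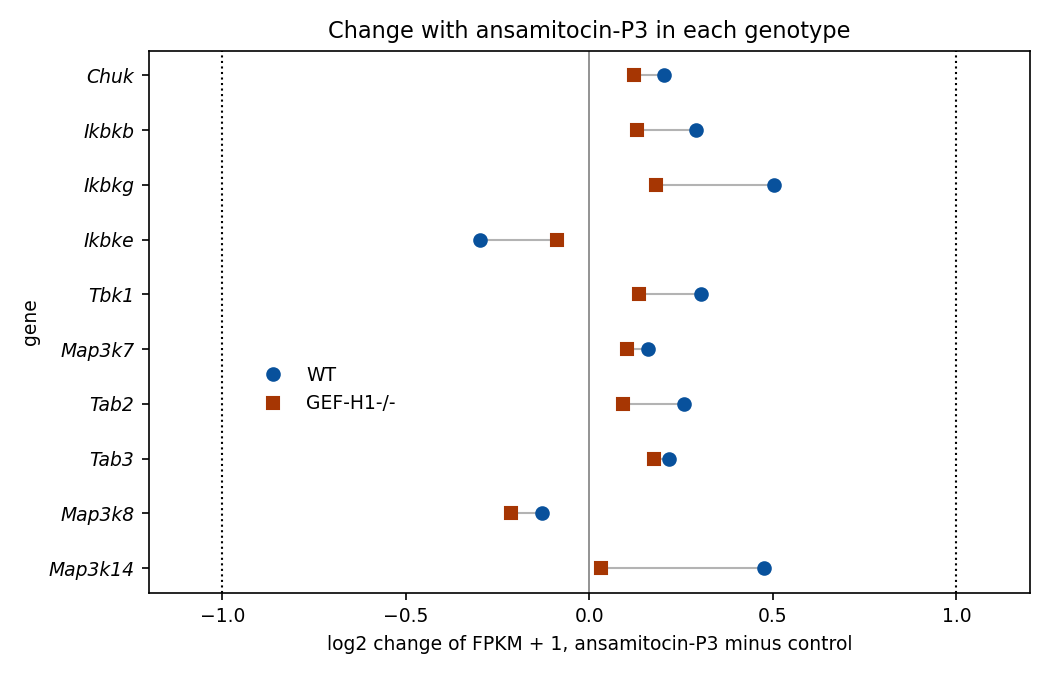
Log2 change of FPKM + 1 (ansamitocin-P3 minus control) of each gene in WT (circles) and GEF-H1-/- DCs (squares), with dotted lines at the limit of 1 and -1. No point reaches a dotted line, *Map3k14* and *Ikbkg* show the widest gaps between the genotypes as deposited (0.44 and 0.32), and *Ikbke* and *Map3k8* lie below 0 in both.

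Between the genotypes, none of the 10 genes passed the limit in control cells (1.88% of all genes) or in treated cells (4.06% of all genes). Intervals of WT and knockout DCs overlapped for all 10, while they were apart for 4.74% of all genes in control and 13.7% in treated cells. In control cells the difference (knockout minus WT) ran from -0.15 for *Tab2* to 0.16 for *Ikbke*, with a median of -0.06. In treated cells it ran from -0.56 for *Map3k14* to 0.37 for *Ikbke*, with a median of -0.15 beside -0.03 over all genes. There, 9 of the 10 genes were lower in knockout DCs, as were 6029 of all 11397 genes. Of all genes, 8.05% had a lower value than *Map3k14* in this comparison. Under the common sum, 3 of 10 were lower in treated knockout DCs, while 9 of 10 lay below the median of all genes under either scaling. That agreement too was fixed in advance, since rescaling shifts the members and the median nearly alike.

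The genotype difference in the drug's effect (WT change minus knockout change) passed the limit for none of the 10 genes and for 1.9% of all genes. The sign of the drug's change was the same in both genotypes for all 10 members, as for 75.6% of all genes. The change was higher in WT for 9 of 10, *Ikbke* being the exception, as for 51.6% of all genes. The highest of the 4 values was in treated WT DCs for 8 of 10, as for 39.4% of all genes. Under the common sum these counts were 5, 2 and 2 of 10, while the median genotype difference over all genes was -0.19. The shares of all genes were not determined under that scaling, so the shares above do not apply to it. With FPKM rescaled to the median ratio over genes, no log2 change of a member changed sign. The counts therefore depend on the scaling chosen and do not describe the genes alone. The members were chosen with these data known, and no test stands behind the counts.

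Taking the most distant bounds of both intervals, the FPKM ratio of treated to control cells stayed within 2-fold in either direction for 8 of the 10 genes in WT DCs, *Ikbkg* (0.678 to 3.46) and *Map3k14* (0.894 to 2.21) being the others. It did so for 9 of 10 in knockout DCs and between the control groups, where *Ikbkg* was the exception. Between the treated groups, *Ikbkg* (0.398 to 1.57) and *Map3k14* (0.426 to 1.05) again went beyond it. These ranges were worked out for the members only. The share of all genes that stay within 2-fold in this way was not determined, so the counts show nothing particular to the members.

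Other genes of the same pathways were taken from lists that hold no member. Of 14 other MAP3 kinases, 12 passed the filter and none was past the limit with the drug, the median change being 0.12 (log2) in WT and 0.03 in knockout DCs. *Map3k4* and *Map3k9*, named after their values were seen, had lower FPKM in treated WT DCs with intervals apart, at 5.75 (4.48 to 7.02) against 2.90 (2.26 to 3.53) FPKM for *Map3k4* and 2.01 (1.57 to 2.45) against 1.15 (0.902 to 1.40) for *Map3k9*. In the other lists, the genes with intervals apart in WT DCs but inside the limit were *Mapk14*, which encodes p38α, and *Nfkb2*, which encodes p100, given below.

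Of the 13 scaffolds and regulators, *Tank* and *Optn*, which encode adaptors of TBK1, were past the limit in WT DCs, as were 4.94% of all genes. *Tank* was at 29.0 FPKM (22.9 to 35.0) in control WT, 72.8 (58.4 to 87.3) in treated WT, 26.3 (21.3 to 31.2) in control knockout and 48.3 (39.6 to 57.1) in treated knockout DCs, with intervals apart in both genotypes and log2 changes of 1.30 and 0.86. *Optn* was at 3.84 (2.90 to 4.79) and 8.81 (6.65 to 11.0) FPKM in WT and at 3.88 (2.85 to 4.94) and 5.36 (3.98 to 6.74) FPKM in knockout DCs, log2 changes of 1.02 and 0.38. The list had a median of 0.34 in WT and 0.01 in knockout DCs. Among 11 MAP2 and MAP kinases only *Map2k6*, which encodes an activator of p38, was past the limit. It had 1.91 FPKM (1.31 to 2.49) in control WT DCs against 0.269 (0.129 to 0.408) with the drug, and 1.54 (1.05 to 2.02) against 0.437 (0.236 to 0.644) in knockout DCs. *Mapk14* had 48.0 FPKM in control WT against 28.2 in treated WT DCs, and 49.0 against 34.7 in knockout DCs, where the intervals overlapped.

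Among the 8 substrates of these kinases, *Rela*, *Nfkbib* and *Nfkb1* were past the limit in WT DCs and none in knockout DCs. Of all genes, 4.94% were past it in WT and 1.08% in knockout DCs. *Rela*, the gene of the NF-κB subunit p65, was at 30.3 FPKM (24.3 to 36.4) in control WT, 72.0 (56.1 to 87.6) in treated WT, 31.2 (24.9 to 37.6) in control knockout and 50.0 (39.5 to 59.8) in treated knockout DCs. *Nfkbib*, which encodes IκBβ, was at 26.8 (21.9 to 31.8), 56.3 (46.0 to 66.6), 24.8 (19.7 to 30.0) and 36.2 (29.0 to 43.3) FPKM. *Nfkb2* was at 63.8 (52.2 to 75.5), 99.7 (80.8 to 119), 55.4 (45.2 to 65.5) and 69.2 (56.7 to 81.8) FPKM in that order. The log2 changes of *Rela*, *Nfkbib* and *Nfkb1* were 1.22, 1.04 and 1.03 in WT and 0.66, 0.53 and 0.38 in knockout DCs. The median over the substrates was 0.53 in WT and 0.29 in knockout DCs, beside 0.24 and 0.11 for the 10 members. The interferon regulatory factor genes *Irf3*, *Irf5* and *Irf7* in this list changed by 0.06, 0.42 and 0.01 in WT DCs. In knockout DCs they changed by -0.10, 0.10 and -0.11, and their intervals overlapped in both genotypes. Under the common sum, the WT changes of *Rela*, *Nfkbib*, *Nfkb1* and *Optn* were 0.94, 0.77, 0.75 and 0.77, no longer past the limit, while *Tank* (1.02) and *Map2k6* (-1.25) stayed past it. With 5 FPKM added in place of 1, *Nfkbib* (0.94), *Optn* (0.64) and *Map2k6* (-0.39) were also inside the limit.

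**Figure D4:**
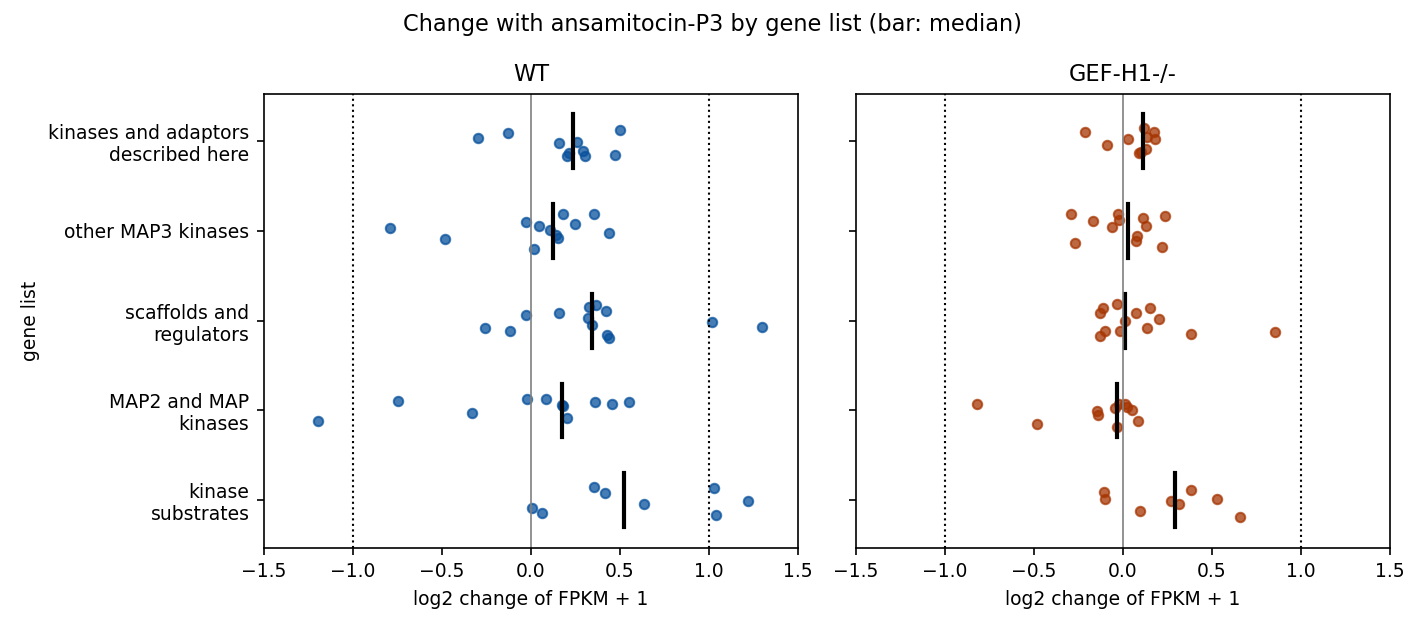
Log2 change of FPKM + 1 with ansamitocin-P3 in WT (left) and GEF-H1-/- DCs (right) for each gene that passed the filter, by gene list, with the median as a bar and dotted lines at 1 and -1. In WT DCs, 3 substrates and 2 scaffolds pass the upper line and *Map2k6* the lower, while no point of the members or of the other MAP3 kinases reaches either line.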

How the data were processed

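Libraries from polyadenylated RNA of 8 BMDC samples were stranded and sequenced as paired ends. The authors computed FPKM with Cuffdiff (1.05 in the submitters' processing notes, which name mm10), with 1 deposited FPKM value and interval per gene and group. The aligner and annotation of the table are not given in the sources used here. The number of unused columns with per-sample values was 0.

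Genes with a Cuffdiff status other than OK (107) were left out, and the 11397 genes kept had 1 FPKM or more in some group. Changes were log2 ratios of FPKM + 1, computed in Python 3.11.15 with pandas 2.3.3, and were tested on simulated data. Since a group has 1 pooled value, no test was run. Summed FPKM ran from 594706 to 734144 between the groups. Starts in the table count from 0 and are given here from 1. Besides the members, the rule named those of the pathway lists past the limit. List genes named for separate intervals in WT, the interferon regulatory factor genes, and partners set against a kinase were chosen after their values were seen. The genes most like a member were sought only for members past the limit, of which there were 0. The members and lists were chosen with earlier results of these data known. Alternatives were pseudocounts of 0.1 and 5 FPKM, other filters, 2 rescalings and a requirement of separate intervals. The result of 1 further marker list is not reported here.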

Additional observations from a re-analysis of the deposited data

How the results depend on the processing

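No paired analysis was possible because the deposited table holds 1 pooled value per gene and group, and for the same reason leaving out a library was not run. No member was past the limit in any comparison under any setting tried, and with a filter of 5 FPKM *Tab3* dropped out. Of the 50 log2 changes of members, none changed sign under the pseudocounts, filters or rescaling to the median ratio over genes, and 19 did under the common sum, whose factor for treated WT DCs was 1.21. There, intervals were apart for 1 member (*Ikbke*) in WT and for 1 between the treated groups, 5 members had the same sign in both genotypes, 2 a higher change in WT, and 2 their highest value in treated WT DCs. After the drug 4 were higher in WT, and 3 were lower in treated GEF-H1-/- DCs. The shares of all genes with intervals apart or with these signs were not determined under the common sum. The median change over all genes there was -0.24 in WT and 0.20 between the treated groups. Counts over all genes moved most with the pseudocount. With 0.1 FPKM they were 956 in WT, 212 in GEF-H1-/-, 372 between control groups, 801 between treated groups and 387 for the genotype difference, and with 5 FPKM 318, 77, 101, 206 and 123. Requiring separate intervals left 70 genes in GEF-H1-/- DCs and 141 for the genotype difference.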

Other observations

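The adaptors and inhibitors that bind these kinases were also set against the kinases themselves, as ratios of FPKM within a group, in pairs chosen after the values were seen and not tested. *Tank*, an adaptor of both IKK-related kinases, was at 1.23 times the FPKM of *Tbk1* in control WT DCs (0.819 to 1.85 from the bounds of both intervals) and at 2.49 times (1.68 to 3.66) in treated WT DCs. In GEF-H1-/- DCs the ratio was 1.18 (0.803 to 1.73) in control and 1.96 (1.35 to 2.86) in treated cells. Against *Ikbke* the ratio was 1.47 (0.976 to 2.20) and 4.59 (3.10 to 6.78) in control and treated WT DCs, ranges that do not overlap, and 1.19 (0.810 to 1.74) and 2.33 (1.60 to 3.40) in GEF-H1-/- DCs.

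*Nfkb1* encodes p105, which holds TPL2 inactive, and was at 17.9 times the FPKM of *Map3k8* in control WT DCs (12.1 to 27.0) and at 40.9 times (27.5 to 61.5) in treated WT DCs, again without overlap. The ratio was 15.5 (10.5 to 23.4) and 24.1 (16.2 to 36.6) in control and treated GEF-H1-/- DCs, where the ranges overlapped. *Tnip2*, which encodes another partner of TPL2, was at 2.17 times *Map3k8* in control WT DCs (1.44 to 3.31) and 3.29 times in treated WT DCs (2.19 to 5.00). These ranges overlapped, as did those in control and treated GEF-H1-/- DCs (ratios of 2.19 and 2.88). *Traf2*, whose product takes part in the degradation of NIK, was at a ratio of 0.389 to 0.440 to *Map3k14* in the 4 groups. *Traf3*, whose product also takes part in it, was at 0.267 and 0.216 of *Map3k14* in control and treated WT and at 0.328 and 0.360 in control and treated GEF-H1-/- DCs, with overlapping ranges from the bounds. A ratio within a group does not depend on the scaling of that group.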
